A study of Sus scrofa with 6 samples.

Results

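miR-184 (listed as ssc-miR-184) was followed in small RNA libraries of denuded pig oocytes, that is, oocytes stripped of their cumulus cells. It is 1 of the 326 mature pig miRNAs listed in every library, found by its name. It was chosen because it was higher in oocytes of large follicles, so its values in the groups below are a description and carry no test. The oocytes came from the ovaries of prepubertal gilts, young female pigs before puberty, collected at an abattoir. The large-follicle group (LO) was drawn from follicles 3 to 6 mm across through a 20-gauge needle on a 10 mL syringe. The small-follicle group (SO) was drawn from follicles below 2 mm through a 23-gauge needle on a 5 mL syringe, so follicle size and aspiration gear cannot be told apart. Each group had 3 libraries, described by the submitters as biological replicates. The sources used here do not state how many oocytes or animals went into a library. The series relates the profile to developmental competence, the ability of an oocyte to support an embryo.

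A miRNA is a short RNA that guides the silencing of messenger RNAs through its seed, bases 2 to 8 of the mature strand. miR-184 has been kept with little change from insects to mammals. In mammals it is best known from the epithelia of the cornea and lens and from the brain. In human epithelial cells it is known to oppose miR-205, another epithelial miRNA, on the messenger RNA of the lipid phosphatase INPPL1. In Drosophila it is required in the female germ line.

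The mature sequence of miR-184 is printed with that of miR-205 and with the listed sequences nearest to it, to show how far they lie from it; copies outside the list were not examined. Capitals mark the seed, letters are DNA as deposited, and the sequences run 5′ to 3′.
miR-184: tGGACGGAgaactgataagggt
miR-205: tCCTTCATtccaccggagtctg
miR-143-3p: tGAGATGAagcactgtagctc
miR-664-5p: cAGGCTAGgagaagtgattggat
miR-184 is 22 bases long, 11 of them G or C, and 5 of the 7 seed bases are G or C. Of the other listed miRNAs, 0 have the same seed, and 0 carry the 7 seed letters anywhere in the mature strand. The nearest listed sequences, miR-143-3p and miR-664-5p, are each 9 single-base changes, insertions or deletions away. miR-184 therefore has no seed family in this list, unlike let-7c or miR-29a below. In the RefSeq annotation of another pig assembly, Sscrofa11.1, the MIR184 gene lies within the span of the uncharacterised long noncoding RNA gene LOC106507693. Its nearest protein-coding neighbours are RASGRF1, an activator of Ras signalling, and ANKRD34C. That annotation places 0 other miRNA genes within 50 kb of it.

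The LO libraries were shallower, with 17464, 7755 and 42541 listed miRNA reads in replicates 1 to 3, against 55230, 44964 and 50936 in SO replicates 1 to 3. LO replicate 2 was the thinnest library. Levels are given in RPM: the submitters scaled each library to 1000000 reads of a total of their own, which exceeds its listed miRNA reads. Listed miRNAs made up 3.03%, 1.68% and 2.99% of that total in LO replicates 1 to 3, against 2.88%, 2.34% and 2.33% in SO replicates 1 to 3. A low percentage lowers the RPM of the listed miRNAs as a whole, at any depth. LO replicate 2 held the lowest RPM of the LO libraries for 87 of the 104 miRNAs with enough reads to test. LO replicate 1 held the highest RPM of the 6 libraries for 65 of the 104.

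miR-184 was higher in every LO library than in any SO library. It had 186, 56.3 and 75.1 RPM in LO replicates 1 to 3, against 39.7, 37.0 and 30.6 RPM in SO replicates 1 to 3. These values rest on 107, 26 and 107 reads in LO and on 76, 71 and 67 reads in SO, 454 reads in all. LO replicate 1 stood well above LO replicates 2 and 3, while the 3 SO libraries lay close together. The LO mean was 106 ± 70.0 RPM and the SO mean 35.8 ± 4.65 RPM (SD, n = 3 in both), a 2.96-fold ratio. With medians in place of means the ratio was 2.03-fold, and without LO replicate 1 the ratio of means was 1.84-fold. On log2(RPM + 1) the difference of group means was 1.35, and 0.85 without LO replicate 1. Over the 9 pairings of an LO with an SO library, the ratio ran from 1.42-fold to 6.07-fold. In bulk libraries of this kind, more miR-184 in each oocyte and more oocytes or other cells that carry it cannot be told apart.

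Relative to the value itself, counting error was widest where reads were few. The 95% exact Clopper-Pearson interval was 36.8 to 82.5 RPM in LO replicate 2, which overlaps the intervals of all 3 SO libraries, the highest being 31.3 to 49.7 RPM in SO replicate 1. The interval was 152 to 225 RPM in LO replicate 1 and 61.6 to 90.8 RPM in LO replicate 3, both above every SO interval. In the order of levels, LO replicates 3 and 2 did not differ beyond counting error, nor did any of the 3 SO libraries from each other. These intervals cover the counting of reads only, not the spread between replicates. If amplified copies of 1 molecule were counted as separate reads, which is not stated, they are too narrow.

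Replicates differed more in LO than in SO. The spread of miR-184 reads about their expected share of the library total, given as chi-square per degree of freedom, was 30.7 among LO libraries and 1.26 among SO libraries. A value near 1 is what counting alone gives. The medians over the 104 tested miRNAs were 7.71 in LO and 4.84 in SO. By this measure miR-184 came 15th from the top of the 104 within LO and 86th within SO. The measure grows with read number, so it does not compare relative spread between miRNAs. As the highest over the lowest RPM + 1 within LO, miR-184 stood at 3.26, 40th of the 104, beside a median of 2.64.

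Other scales kept the order of the groups but not that of the LO libraries. As a share of listed miRNA reads, miR-184 took 0.613%, 0.335% and 0.252% in LO replicates 1 to 3, against 0.138%, 0.158% and 0.132% in SO replicates 1 to 3. The intervals did not overlap between groups on this scale, with 0.206% as the lowest LO bound, in replicate 3, and 0.199% as the highest SO bound, in replicate 2. LO replicate 2, lowest of the LO libraries in RPM, was above LO replicate 3 here. With TMM scaling (edgeR's trimmed mean of M values), brought to the same overall level, miR-184 stood at 113, 90.7 and 61.1 rescaled RPM in LO, against 37.9, 40.9 and 38.6 rescaled RPM in SO. The mean ratio was 2.81-fold by share and 2.26-fold with TMM, and without LO replicate 1 it was 2.06-fold and 1.94-fold.

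**Figure D1:**
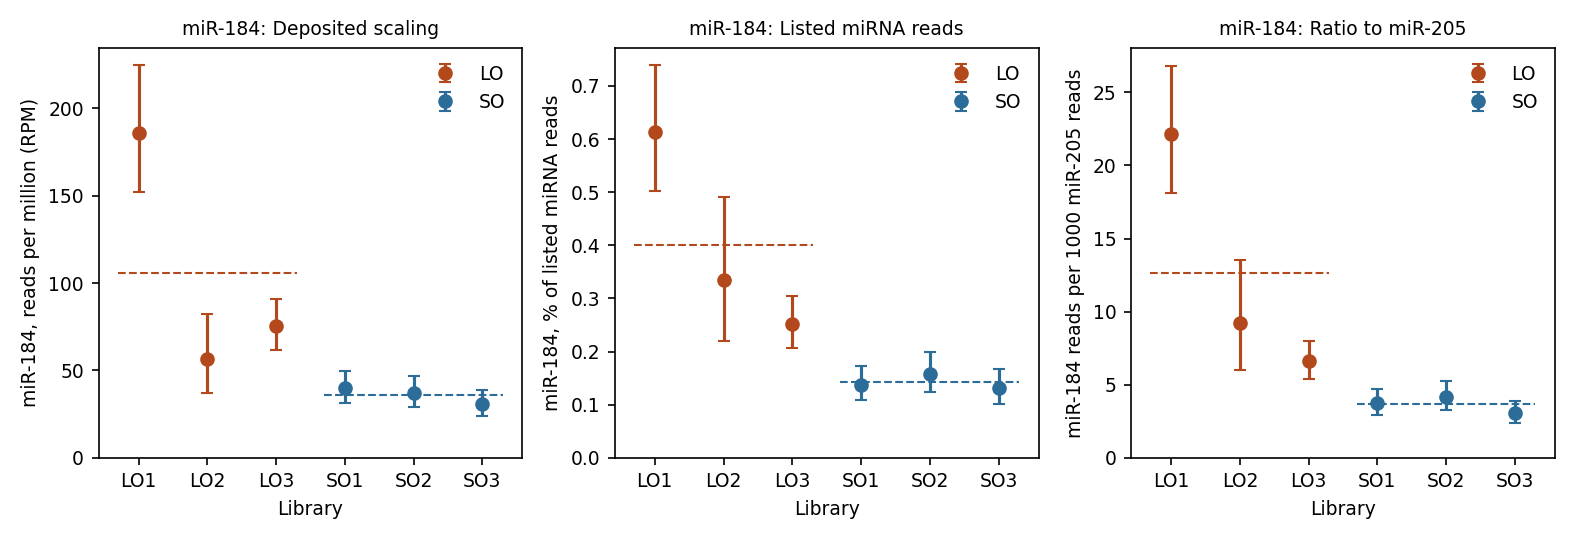
miR-184 in each library as RPM (left), as percent of listed miRNA reads (middle) and as reads per 1000 miR-205 reads (right); points are libraries, bars 95% exact counting intervals and dashed lines group means. On each scale the 3 LO libraries lie above the 3 SO libraries, with LO replicate 1 highest, and in RPM the interval of LO replicate 2 reaches down to 36.8.

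A ratio to another miRNA of the same library does not depend on any scaling. miR-205, the most abundant miRNA of these oocytes and the one known to share a target with miR-184, served for this. There were 22.1, 9.22 and 6.62 miR-184 reads per 1000 miR-205 reads in LO replicates 1 to 3, against 3.75, 4.16 and 3.05 in SO replicates 1 to 3. The groups did not overlap, with a mean of 12.7 ± 8.32 over the LO libraries and 3.65 ± 0.562 over the SO libraries (SD, n = 3 in both). The group means of the log2 ratio differed by 1.61, and by 1.11 without LO replicate 1. Put the other way, 1 miR-184 read stood beside 45.1 to 151 miR-205 reads in LO and 240 to 328 in SO. miR-205 itself had 8389, 6108 and 11355 RPM in LO replicates 1 to 3, against 10578, 8894 and 10046 RPM in SO replicates 1 to 3, and its groups overlapped.

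The same ratio was taken to each of the 99 other tested miRNAs with reads in all 6 libraries. The log2 difference of group means was positive for 98 of them, with a median of 1.06, and it was -0.07 against miR-210. For 59 of the 99 the ratio in every LO library was above that in every SO library. When each of the 100 miRNAs took the place of miR-184 in this count, the median was 4 and the highest was 59, shared by miR-184 and miR-152. Among the miRNAs against which the groups overlapped were miR-152, miR-210, miR-374a-3p, miR-31 and miR-143-3p. As miR-184 was picked for this contrast, these counts describe its place and support nothing further.

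Set among all tested miRNAs, miR-184 had the second largest difference, after miR-210, known as a hypoxia-responsive miRNA. The log2 fold changes of the 104 ran from -1.05 to 1.40 with a median of 0.29, so miR-184 lay 1.06 above the median. With TMM the median was 0.05 and miR-184, at 1.11, again lay 1.06 above it and second in order. In edgeR it stood at 1.16, behind miR-210 and miR-339. Only miR-184 and miR-374a-3p, 2 of 104 (1.92%), had every LO library above every SO library in RPM. By share of listed reads 9 of 104 (8.65%) had that order and with TMM 8 of 104 (7.69%), miR-184 in both. In RPM the reverse order, every LO library below every SO library, was held by 2 of 104 (1.92%).

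Across all miRNAs limma on log2(RPM + 1) called 0 of 104 (0%) at a false discovery rate of 0.05. At an unadjusted p under 0.05 it listed 4 of 104 (3.85%), all higher in LO. With TMM scaling limma listed 11 of 104 at that threshold, 4 of them higher in LO. edgeR's quasi-likelihood test, on whole reads recovered from the RPM steps, called 2 of 104 (1.92%), miR-184 and miR-210, both higher in LO, and DESeq2 called 0 of 242 (0%). At an unadjusted p under 0.05 edgeR listed 13 of 104, 6 of them higher in LO. Without LO replicate 2 limma on log2(RPM + 1) called 18 of 104 (17.3%), all higher in LO and miR-184 among them. In that setting 79 of the 104 had a higher mean in LO, and the median log2 fold change was 0.62. miR-184 was chosen from this contrast, so its place among these calls is a description.

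**Figure D2:**
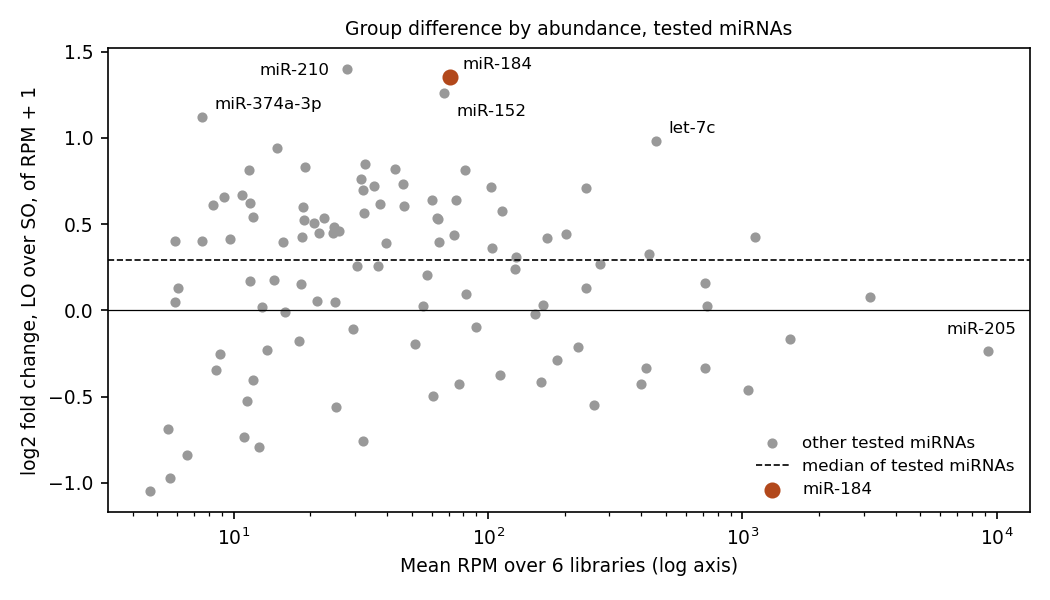
Each point is 1 of the 104 tested miRNAs, with its mean RPM over the 6 libraries (log axis) and its log2 fold change of RPM + 1, LO over SO; the dashed line is the median, 0.29. miR-184, at 70.8 RPM and 1.35, lies near the top edge beside miR-210 and miR-152.

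Counted from the most abundant of the 326 listed miRNAs, miR-184 was 24th, 31st and 41st in LO replicates 1 to 3, against 48th, 45th and 44th in SO replicates 1 to 3. By group mean it was 30th in LO and 46th in SO. Its neighbours in the LO order were let-7e at 107 ± 56.7 RPM and miR-335 at 99.4 ± 42.8 RPM, and in the SO order miR-152 at 37.9 ± 14.3 RPM and miR-29c at 35.1 ± 7.61 RPM (SD, n = 3). None of these differed from miR-184 in the same group by more than the spread between replicates.

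Over all 6 libraries miR-184 averaged 70.8 RPM and came 36th of the 104. Next above it were miR-99a, with log2 fold change 0.64, and let-7g, with 0.44. Next below were miR-152, of the miR-148 family, which stood at 1.26, and miR-195, a relative of miR-16 that stood at 0.40. miR-152 had 142, 45.5 and 102 RPM in LO replicates 1 to 3, against 47.5, 44.8 and 21.5 RPM in SO replicates 1 to 3. Its LO replicate 2 lay below SO replicate 1, so its groups overlapped in RPM where those of miR-184 did not.

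The miRNAs whose pattern over the 6 libraries was most like that of miR-184 were found by the root mean square difference of log2(RPM + 1), each miRNA taken about its own mean. Library scaling nearly cancels in this measure. It includes the difference between LO and SO, for which miR-184 was chosen, so it favours other miRNAs higher in LO. The 5 nearest of 103 were let-7c at 0.25, miR-374a-3p at 0.28, miR-29a at 0.33, miR-143-3p at 0.35 and let-7e at 0.35 log2 units, beside a median of 0.71 and a largest value of 1.65. With each miRNA taken about its own group means instead, the nearest was miR-98 at 0.10. On that measure miR-29a stood at 0.12, let-7c at 0.17, let-7e at 0.23, miR-143-3p at 0.24 and miR-374a-3p at 0.26. Of these, only miR-29a stayed among the nearest 5. let-7c and let-7e belong to the let-7 family, which accumulates as cells differentiate, miR-29a to one known for repressing collagen genes, and miR-143-3p is a miRNA of smooth muscle and stroma.

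let-7c, far more abundant than miR-184, had 1160, 286 and 473 RPM in LO replicates 1 to 3, against 261, 339 and 228 RPM in SO replicates 1 to 3. It was highest in LO replicate 1, as miR-184 was, but its LO replicate 2 lay below SO replicate 2. miR-29a had 95.5, 36.8 and 47.0 RPM in LO, against 38.1, 31.8 and 28.8 RPM in SO. Its groups overlapped by the same library, LO replicate 2, which lay below SO replicate 1. miR-374a-3p, the other miRNA with no overlap in RPM, had 17.4, 6.50 and 8.43 RPM in LO, against 4.70, 5.73 and 2.29 RPM in SO, with 3 reads in LO replicate 2. miR-143-3p had 69.5, 30.3 and 30.2 RPM in LO, against 31.3, 20.3 and 16.0 RPM in SO, and let-7e had 54.2 to 167 RPM in LO, against 42.0 to 70.4 RPM in SO. All 5 were highest in LO replicate 1.

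**Figure D3:**
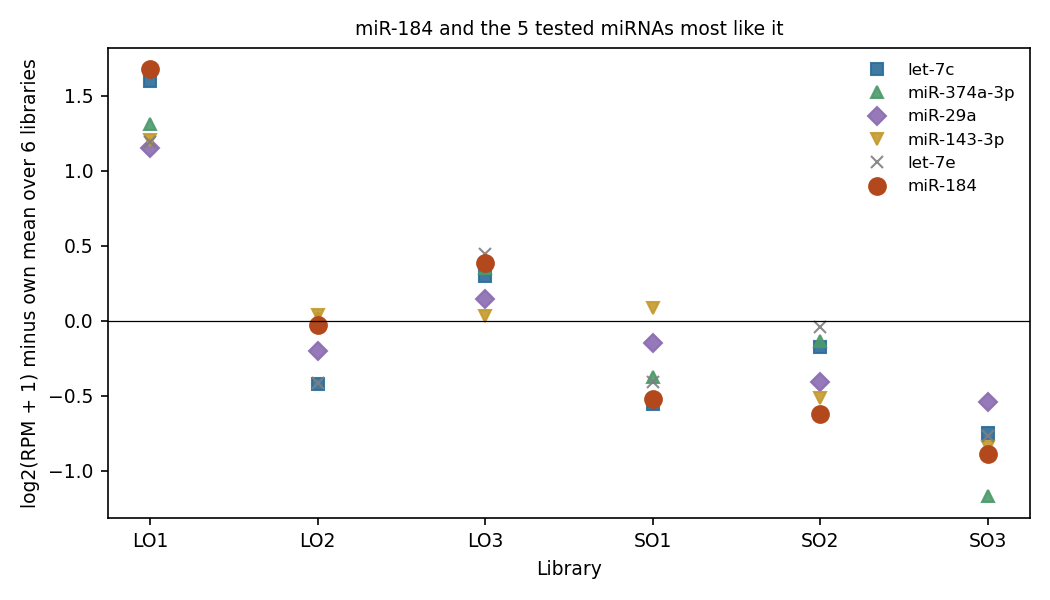
log2(RPM + 1) of miR-184 and of the 5 tested miRNAs most like it, each minus its own mean over the 6 libraries; points are libraries, LO on the left. All 6 miRNAs peak in LO replicate 1 and are below their mean in SO replicate 3, and miR-184 and let-7c lie 0.25 log2 units apart in root mean square.

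The miRNAs known from the same tissues as miR-184 did not share its direction as a group. Of 14 surface epithelium and eye miRNAs named, 7 were analysed here and 5 had enough reads to test. miR-184 is itself 1 of these 5, and it was chosen as higher in LO, so it is no evidence on the list. Of these 5, 0 passed a limma false discovery rate of 0.05 with all 6 libraries, as did 0 of all 104 (0%), and 2 had higher means of log2(RPM + 1) in LO, beside 72 of all 104. miR-184 and miR-31, a miRNA of keratinocytes that is also on the granulosa and cumulus list, had higher means in LO, with log2 fold changes of 1.35 and 0.71. miR-205, miR-182 and miR-183, of which miR-182 and miR-183 are made together in sensory organs, had lower means in LO, at -0.23, -0.34 and -0.43. The median of the 5, miR-184 included, was -0.23, beside 0.29 for all tested miRNAs. Apart from miR-184, only miR-31 had a higher mean in LO. miR-204, an eye miRNA, had 43 reads in all, and miR-429 had 1.

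Of 9 nervous system miRNAs, 5 had enough reads, 0 passed and 1 had a higher mean of log2(RPM + 1) in LO, with a median log2 fold change of -0.46, beside 0 called, 72 higher and a median of 0.29 among all 104. The most abundant was miR-128, with an LO mean of 886 ± 252 RPM and an SO mean of 1208 ± 242 RPM (SD, n = 3 in both). The 4 analysed miRNAs of the germ cell and gonad list were all testable, 0 passed and 2 had higher means of log2(RPM + 1) in LO, with a median log2 fold change of 0.25, close to the 0.29 of all 104. On plain RPM the LO mean of miR-202-5p was also the higher, at 159 ± 93.4 RPM against 146 ± 60.2 RPM in SO, while its log2 fold change was -0.02. miR-202-5p, a gonadal miRNA, had 247, 60.7 and 169 RPM in LO replicates 1 to 3, against 214, 124 and 100 RPM in SO replicates 1 to 3, and its groups overlapped. The reads of this list were present in every library, at 0.632% to 1.13% of listed reads in LO and 0.603% to 0.954% in SO.

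Markers of other cell types were read beside miR-184, and their part in its difference was not tested. The granulosa and cumulus list, 8 names of which 3 were testable, held 3.26%, 1.86% and 2.48% of listed reads in LO replicates 1 to 3, against 2.34%, 2.16% and 1.64% in SO replicates 1 to 3. It was highest in LO replicate 1, the library highest in miR-184, and second lowest in LO replicate 2, and its groups overlapped. By share of listed reads, LO replicate 1 was also the highest library for 58 of all 104 tested miRNAs. On that scale miR-184 was second highest in LO replicate 2, at 0.335%, where this list was second lowest. miR-21, the member with most reads over the 6 libraries, had 415, 102 and 284 RPM in LO, against 309, 179 and 167 RPM in SO (log2 fold change 0.13). miR-31, also on this list, was above miR-21 in all 3 LO libraries, with 476, 147 and 306 RPM in LO, against 206, 204 and 116 RPM in SO (log2 fold change 0.71). Its groups overlapped in RPM, but by share of listed reads and with TMM every LO library was above every SO library, as for miR-184. miR-335 had 92.0, 60.7 and 145 RPM in LO, against 157, 119 and 96.4 RPM in SO (log2 fold change -0.38). miR-132, miR-212, miR-224, miR-383 and miR-378 of this list had 1 to 12 reads each over the 6 libraries.

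The theca, stroma and smooth muscle list, 9 names led by miR-143-3p and with miR-214 at 0 reads, held 0.252% to 0.438% of listed reads in LO and 0.194% to 0.349% in SO. Endothelial markers, 2 names led by miR-126-3p, held 0.0306% to 0.0645% in LO and 0.0137% to 0.0489% in SO. Erythroid markers, 3 names led by miR-451, held 0.0141% to 0.0258% in LO and 0.00667% to 0.0157% in SO. The groups of these 3 lists overlapped.

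Leukocyte markers, 5 names of which 4 were analysed, led by miR-142-3p, held 0.0235% to 0.0630% in LO and 0.0157% to 0.203% in SO, the highest in SO replicate 1. Muscle markers, 5 names led by miR-1 and with miR-133a-5p and miR-133b at 0 reads, held 0.0329% to 0.0774% in LO and 0.0157% to 0.0222% in SO, which did not overlap. By share, 9 of 104 tested miRNAs (8.65%) had that order. The muscle values rest on few reads over the 6 libraries, 32 of miR-1, 23 of miR-133a-3p and 4 of miR-206, and 0 of the 5 names were testable. The liver miRNA miR-122 held 0.0258% to 0.0658% in LO and 0.00890% to 0.0903% in SO.

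Base composition also moved with the group difference. The 35 tested miRNAs with at least 50% G and C, miR-184 among them, had a median log2 fold change of 0.53, and the 69 with less had 0.17. miR-184, at exactly 50%, sat on that cutoff, and its log2 fold change was 1.35. The part of base composition in the miR-184 difference was not tested.

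The size of the miR-184 difference varied over the 13 alternative settings tried. As every LO library was above every SO library, leaving out 1 library, taking medians or changing the pseudocount could not turn its sign. The log2 fold change was lowest without LO replicate 1, at 0.85, and highest without LO replicate 2, at 1.71. Changing the pseudocount to 0.5 or 5 RPM gave 1.36 and 1.27, and leaving the 3 most abundant miRNAs out of the listed reads gave 1.22.

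**Figure D4:**
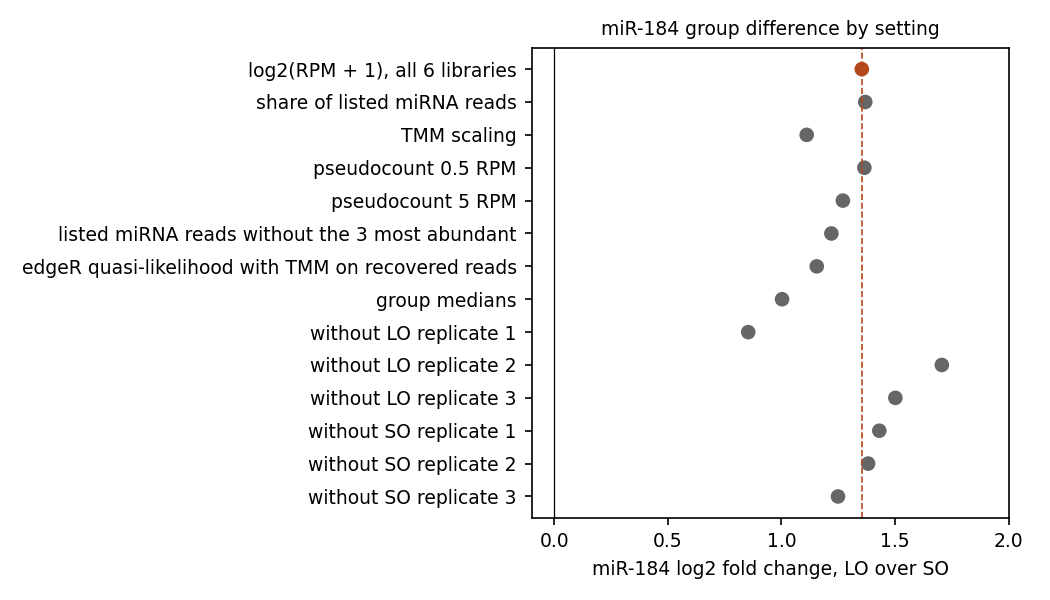
log2 fold change of miR-184, LO over SO, under each of 14 settings; the dashed line marks 1.35, the value on log2(RPM + 1) with all 6 libraries. All points lie above 0; the lowest, 0.85, leaves out LO replicate 1 and the highest, 1.71, leaves out LO replicate 2.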

How the data were processed

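Total RNA from denuded oocytes was made into QIAseq miRNA libraries, per the labels' protocols, and read on a NextSeq500. Tools in the submitters' processing notes, whose roles are not stated there, are Bowtie2 2.2.2, cutadapt, bcl2fastq and edgeR, and the build is Sscrofa10.2. Each deposited table gives 326 mature sequences and 1 value headed TPM, which is a whole multiple of 1 step per library whatever the sequence length, so the deposited values were read as RPM. All 1135 nonzero values (100%) came out as whole reads when divided by it, within 0.02 read. Library totals recovered were 461505 to 2187987 reads, and 1 read was worth 0.457 to 2.17 RPM. The sources used here do not say whether reads were collapsed by molecular identifier.

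Groups came from the titles. limma 3.58.1 with an intensity trend (R 4.3.3) was run on log2(RPM + 1) for the 104 miRNAs passing filterByExpr, with Benjamini-Hochberg adjustment, and tested on simulated data. edgeR 4.0.16 and DESeq2 1.42.0 were run on the recovered reads. TMM and share values were brought to the mean listed RPM before 1 was added. No genome was used, and the gene table, of another build, gave names and neighbours only.

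miR-184, the lists and the alternatives were chosen with earlier results of these data known. The miRNAs named are miR-184, miR-205, the 5 nearest in pattern, 2 neighbours on each side in abundance, those with LO above SO throughout, and the leader of each list. miR-98, miR-210, miR-339, miR-664-5p, the rank neighbours and the other list members named were chosen after their values were seen.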

Additional observations from a re-analysis of the deposited data

How the results depend on the processing

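The miR-184 log2 fold change ran from 0.85 to 1.71 when 1 library was left out, where its sign could not turn because the groups do not overlap. Its log2 ratio to miR-205 differed by 1.11 to 1.98 between groups when 1 library was left out. The number of miRNAs called at a false discovery rate of 0.05 was 0 by limma and 2 by edgeR on recovered reads, and 0 to 18 in limma with 1 library left out, the 18 without LO replicate 2 and 0 without any other library. The number with every LO library above every SO library was 2 of 104 (1.92%) in RPM. It was 9 of 104 (8.65%) by share of listed reads and 8 of 104 (7.69%) with TMM. With no filter on low reads it was 8 of the 242 miRNAs with any read. With 1 library left out it was 3 to 46 of 104. The 46 came without LO replicate 2, and it was 10 without SO replicate 1 and 5 without LO replicate 3. The cause was not tested, except that fewer libraries make non-overlap easier. With the replicate number as a block limma called 0. The deviations of same-numbered libraries correlated at -0.34, -0.22 and 0.08 for numbers 1 to 3. Those of differently numbered libraries ran from -0.29 to 0.43. So few correlations cannot tell whether same-numbered libraries share more than a number. Depth limits LO replicate 2 most, where 26 reads carry miR-184 and a count of 0 allows up to 6.50 RPM.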
